A study of Homo sapiens with 4 samples.

Results

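The Unknown nuclei are the nuclei that the deposited annotation of this series left without a cell type name. They were taken as every nucleus whose cell type entry reads Unknown, and they numbered 568 of 14812 annotated nuclei, of which 176 were in control replicate 1, 60 in control replicate 2, 211 in PP121 replicate 1 and 121 in PP121 replicate 2. Nuclei marked as filtered for low quality were left out, which reduced 25306 deposited nuclei to those 14812. The other named classes were enteric neurons (6557), Progenitor 1 (2892), Progenitor 2 (3800), mesenchymal (903) and epithelial nuclei (92).

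Nuclei came from enteric ganglioids, free-floating clusters of gut neurons, progenitors and other cells differentiated from H9, an established human embryonic stem cell line. The 2 control samples received no compound, and the 2 PP121 samples received 2 µM PP121, an inhibitor of receptor tyrosine kinases and phosphoinositide kinases, from day 15 to day 20. Each sample pooled ganglioids, and the labels name no genetic change in any of the 4. Whether same-numbered samples came from the same differentiation was not established here. The deposited annotation dates both samples numbered 1 to day 42 and both samples numbered 2 to day 38, so the replicate number also marks the day. The same annotation names the control libraries differently from their titles, control replicate 1 as replicate 2 of stage 1 and control replicate 2 as a stage 2 sample, so several treatment values are also given without each of them. Single-nucleus RNA sequencing gave 554931 to 1825779 unique molecular identifiers (UMIs, counted transcripts) summed over the Unknown nuclei of a sample, and their median per nucleus was 7767 to 9911. Annotated nuclei of any 2 libraries shared at most 8 barcodes, and no barcode was shared between Unknown nuclei.

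The dorsal midline of the embryonic neural tube is the roof plate, a strip of neuroepithelium that is specified by the homeodomain factor LMX1A and secretes BMP, WNT and R-spondin ligands toward the neighbouring dorsal progenitors. The roof plate of the hindbrain and forebrain gives rise to the choroid plexus, whose epithelium bears motile cilia and makes transthyretin (TTR). Motile cilia differ from the primary cilium of most cells in their axonemal dyneins, central pair and radial spokes. Their genes are switched on by FOXJ1 and RFX factors, and cells with many cilia also use GMNC, MCIDAS, CCNO and the CDC20B locus to amplify basal bodies.

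The Unknown nuclei were first described against the sum of all other annotated classes within each sample. Levels are CPM, the counts of a gene scaled to a common total of UMIs over the summed nuclei, and ratios are log2 ratios of CPM + 1. Because the classes were made from clusters of the same nuclei, these contrasts are descriptions and carry no test. Of 22013 genes with at least 10 UMIs in every sample, 150 were at least 4-fold higher in the Unknown nuclei of all 4 samples, which is 0.681% of the genes, and 68 were at least 4-fold lower, or 0.309%. Against each single class of at least 30 nuclei, 56 genes were at least 4-fold higher in every sample (0.254%) and 0 were 4-fold lower. Epithelial nuclei reached that number only in PP121 replicate 2, so the epithelial class was left out of this count in the other samples.

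LMX1A, the roof plate homeodomain factor (chromosome 1, 165201867 to 165356715, minus strand, GRCh38), led the list. Its level was 302.7 and 309.9 CPM in the control libraries (replicates 1 and 2, in this order throughout) and 462.3 and 558.0 CPM with PP121, against 0.37 to 1.41 CPM in the other classes. The log2 ratio was 7.72 ± 0.19 (SD, n = 4), and from 95.03% to 95.90% of the annotated nuclei's LMX1A UMIs lay in the Unknown nuclei. With every nucleus thinned to 2000 UMIs, 35.9% of 565 Unknown nuclei held an LMX1A UMI (exact 95% interval 31.97 to 40.04%), against 0.134% of 14158 other nuclei. Without thinning the shares were 62.9% and 0.477%, at median depths of 8375.5 and 6716 UMIs. The share in the other classes serves as the background level.

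Most other genes of the roof plate list were also higher in the Unknown nuclei, though some were at low levels, such as MSX2 at a mean of 4.65 CPM. Of 9 of its 10 genes that could be counted, 8 were higher in the Unknown nuclei of every sample, against 13.6% of all counted genes, and 4 passed 4-fold in every sample. The list's median log2 ratio was 2.35 against -0.18 over all genes. This list was chosen with earlier results of these data known, and LMX1A, GDF7 and RSPO3 were also among the 25 leading genes below. Its counts are a description and no independent evidence. GDF7, a BMP-family ligand of the roof plate (chromosome 2, 20666664 to 20679245), reached 110.6 and 140.6 CPM in the controls and 174.2 and 158.3 CPM with PP121, against at most 3.20 CPM elsewhere. The WNT-amplifying R-spondins RSPO3 and RSPO1 were at 93.8 to 186.2 CPM and 37.8 to 76.1 CPM, against at most 2.63 and 5.58 CPM. RSPO3 was lowest and RSPO1 highest in PP121 replicate 2. WNT3A, MSX1 and ZIC5 were higher in every sample without passing 4-fold in all of them, with mean log2 ratios of 2.35, 2.34 and 1.95. WNT1 fell under the count minimum, with 4.66 to 13.1 CPM in the Unknown nuclei. The summed level of the list was 672.3 to 1074 CPM in the Unknown nuclei, and its highest value in any other class of any sample was 88.7 CPM.

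**Figure D1:**
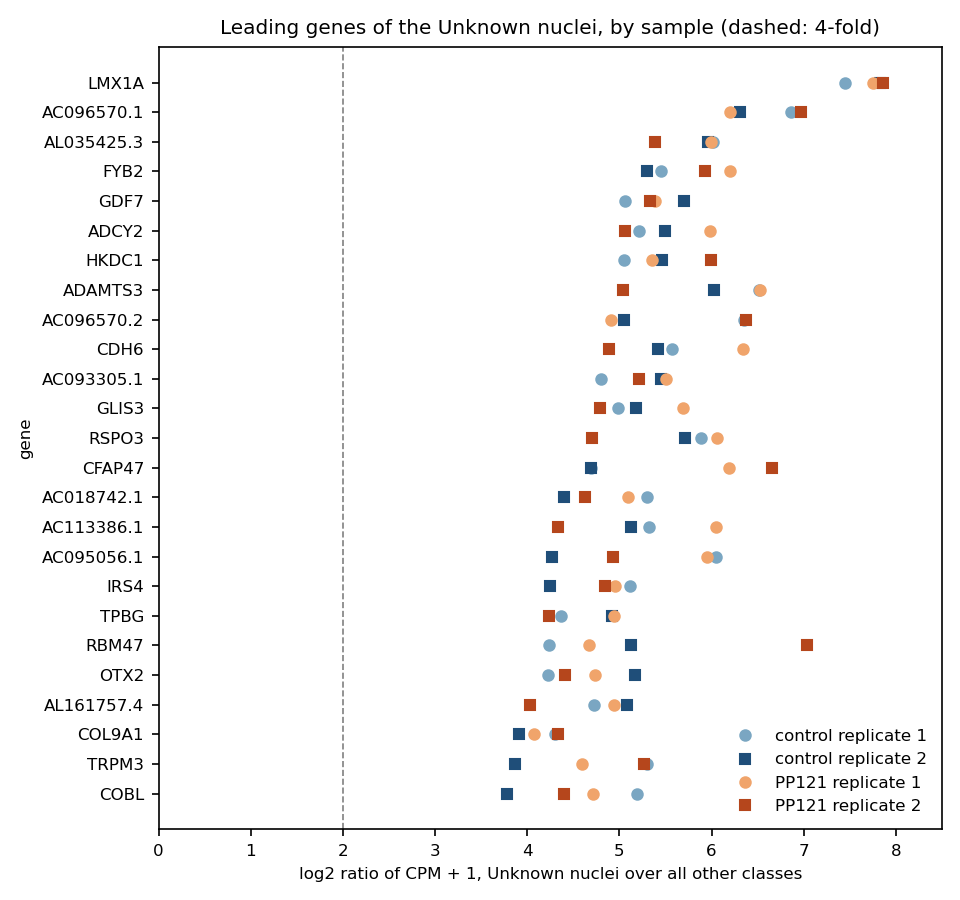
Log2 ratio of CPM + 1 in the Unknown nuclei over all other classes of the same sample (x axis) for the 25 leading genes (y axis), with 1 point per sample. All 4 points of every gene lie beyond the dashed 4-fold line, and LMX1A lies between 7.45 and 7.86.

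The 25 leading genes, ranked by the smallest of their 4 ratios, included 17 protein-coding genes and 8 noncoding ones. Among them were ADCY2, an adenylate cyclase, at 844.0 and 1124 CPM in the controls and 1443 and 2383 CPM with PP121. GLIS3, a Krüppel-like zinc finger factor, was at 1361 to 2878 CPM against at most 89.8 CPM elsewhere, and after thinning 77.7% of Unknown nuclei held one of its UMIs against 7.48% of other nuclei. CDH6, a cadherin of dorsal neuroepithelium and neural crest, was at 488.1 to 787.1 CPM, but mesenchymal nuclei reached 165.4 CPM, so it did not pass 4-fold against every class. The head and choroid plexus homeodomain factor OTX2 was at 96.0, 146.0, 96.9 and 118.4 CPM, the controls first, and its highest level over the other classes together was 4.63 CPM. TRPM3, a cation channel abundant in the choroid plexus, spread widely, from 353.2 CPM in control replicate 2 to 2974 CPM in PP121 replicate 2. HKDC1, TPBG and IRS4 also stood among the leading genes, and each was at most 3.61 CPM over the other classes together.

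The 8 noncoding genes all lay within 100 kb of another leading gene or overlapped one. AC093305.1, AC113386.1 and AC095056.1 are annotated antisense within or across ADCY2, CDH6 and ADAMTS3, with overlaps of 41965, 73861 and 7724 bases. AL161757.4 and AL035425.3 lie on the same strand as OTX2 and IRS4, at distances of 7090 and 7537 bases. AC096570.1 overlaps AC096570.2 by 104411 bases and AC018742.1 by 37692 bases on chromosome 2. The sources used here do not state whether counting used strand, so reads of the overlapping partners may not be told apart.

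Defining genes of the floor plate, the ventral counterpart of the roof plate, were at or near 0. SHH and FOXA2 were each at 0 CPM in 3 samples and 0.77 CPM in PP121 replicate 2, and FERD3L had no UMI. SLIT2, an axon guidance ligand of both midlines, was the 1 gene of the floor plate list that passed 4-fold, at 2206 to 2639 CPM, though epithelial nuclei reached 1543 CPM. Of 9 counted neural crest genes, 0 passed 4-fold upward, 2 passed it downward and 6 were lower in every sample. The list summed to 584.1 to 1076 CPM, against 853.0 to 1104 CPM in the other classes together. Its sum was higher in the Unknown nuclei of both samples numbered 1 and lower in both samples numbered 2. Of 9 counted genes of the Schwann cell and enteric glia list, 0 passed upward and 5 were lower in every sample. Over all counted genes, 27.7% were lower in every sample. SOX10 was at 5.24 to 7.69 CPM, FOXD3 and CDH19 had no UMI, and TFAP2A and TFAP2B were at least 4-fold lower in every sample. PAX3, which marks dorsal neural tube as well as neural crest, was at 272.1 to 477.9 CPM against 275.2 to 344.2 CPM in the other classes. SOX5 was at 256.7 to 530.7 CPM against 377.9 to 569.2 CPM. SOX9 was at 19.8 and 12.6 CPM in the controls and 7.67 and 10.8 CPM with PP121, against 7.76 to 8.31 CPM. Genes of endoderm, pluripotent cells and airway epithelium did not exceed a summed 25.2 CPM per list in any sample. The epithelial class marker CDH1 had no UMI.

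Of the 16 genes of the neuroepithelium and radial glia list, 8 were higher in every sample (13.6% of all counted genes), 0 passed 4-fold and the median log2 ratio was 0.70. ZIC1, a dorsal neural tube factor, was at 144.2 to 224.7 CPM against 33.8 to 74.8 CPM. NFIA, a glial and progenitor factor that is also on the study's progenitor list, was at 1162 to 1627 CPM against 182.9 to 386.8 CPM, and SOX2 was at 47.1 to 51.5 CPM against 28.0 to 35.6 CPM. These values are against all other classes together, and Progenitor 2 was not below the Unknown nuclei on either list. The neuroepithelium list summed to 2250 to 2735 CPM in the Unknown nuclei and 2302 to 3168 CPM in Progenitor 2. The study's progenitor list summed to 1858 to 2361 CPM in the Unknown nuclei and 1914 to 2434 CPM in Progenitor 2. That progenitor list was drawn up on these samples and is no independent evidence. Of 16 cycling genes, 10 were higher in every sample, against 13.6% of all counted genes, at a summed 491.3 to 803.8 CPM, and the highest samples of Progenitor 2 (921.3 CPM) and epithelial nuclei (1114 CPM) were above that range.

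The genes lowest in the Unknown nuclei were genes of neurons. NRXN3, a presynaptic adhesion molecule, was at 429.5 and 237.9 CPM in the controls and 244.3 and 155.3 CPM with PP121, against 1756 to 3594 CPM in the other classes. MYT1L, SRRM4, GRIA2, GRIK3, NRG1, SLC6A5, PAX2, PAX8 and PAX8-AS1 completed the 10 lowest genes. All 11 genes of the study's neuron list were lower in every sample, against 27.7% of all counted genes. Of these 11, 5 were at least 4-fold lower, against 0.309% of all counted genes. The study used this list to name its enteric neurons, which are part of the other classes, so it is no independent evidence. Against single classes other than enteric neurons the contrast was smaller. The neuron list summed to 774.0 to 1147 CPM in the Unknown nuclei and 974.0 to 1424 CPM in Progenitor 1. In Progenitor 2 it summed to 1581 to 2101 CPM and in mesenchymal nuclei to 529.7 to 1291 CPM. MYT1L was at 1.80 to 18.6 CPM in the Unknown nuclei and at most 20.5 CPM in Progenitor 1.

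**Figure D2:**
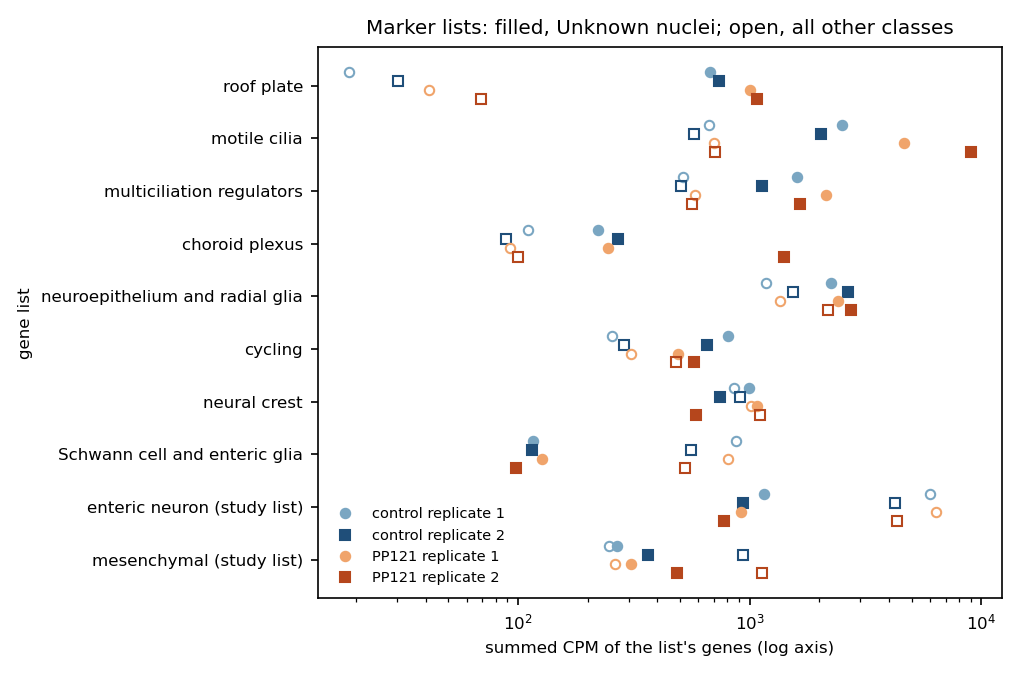
Summed CPM of the genes of 10 marker lists (x axis, log scale) in the Unknown nuclei (filled) and in all other classes together (open), by sample. The roof plate list is far to the right of the other classes in all 4 samples, and the neuron list is to the left.

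Over all counted genes, the Unknown profile correlated most with Progenitor 2 in every sample, with Pearson's r across 22013 genes of 0.912 to 0.935. The correlation with enteric neurons was 0.868 to 0.889. Unknown profiles of different samples correlated at 0.900 to 0.956. Genes are not independent replicates, and the values also depend on depth, which was lowest for epithelial and some mesenchymal sums. Of the 15 nearest nuclei outside the class, 58.4% to 77.2% were Progenitor 2, 9.37% to 31.9% Progenitor 1, 5.40% to 10.3% enteric neurons and 1.00% to 1.74% mesenchymal. Epithelial nuclei, only 92 in all, made up 2.44% to 6.50%, more than mesenchymal nuclei in every sample. The Progenitor 1 share was highest in control replicate 2. In joint clusters of all 14812 nuclei, 436 Unknown nuclei shared a cluster of 441 nuclei, so that 98.9% of that cluster was Unknown. A further 73 lay in the largest progenitor cluster and 54 in a cluster dominated by Progenitor 2.

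The genes that were proposed to mark the class, FOXJ1, DNAH9, HYDIN and SPAG17, belong to motile cilia, and they did not all behave alike. HYDIN is a central pair protein (chromosome 16, 70807378 to 71230722). It was at 193.8 and 155.0 CPM in the controls and 326.4 and 593.3 CPM with PP121, against at most 25.9 CPM in the other classes. It passed 4-fold in every sample, also against each class of at least 30 nuclei, which mostly left out epithelial nuclei. HYDIN has a near-identical partial copy in the genome, so its count is uncertain. SPAG17, another central pair protein (chromosome 1, 117953861 to 118185223), was at 74.5 and 95.5 CPM in the controls and 190.1 and 481.1 CPM with PP121, and passed 4-fold in every sample against the other classes together but not against each class. The dynein heavy chain DNAH9 (chromosome 17, 11598431 to 11969748) was at 83.2 and 52.3 CPM in the controls and 154.5 and 322.8 CPM with PP121, against 30.7 to 47.9 CPM elsewhere, and did not pass. FOXJ1, the master factor of motile cilia (chromosome 17, 76136333 to 76141299), gave only 4, 3, 9 and 10 UMIs. After thinning, 0.885% of Unknown nuclei held a FOXJ1 UMI, against 0.198% of other nuclei, and 15.9% held a DNAH9 UMI, against 6.60%.

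Of the 40 genes of the motile cilia list, all of which were counted, 34 were higher in the Unknown nuclei of every sample (13.6% of all counted genes) and 14 passed 4-fold in every sample (0.681%), with a median log2 ratio of 2.44. Those 14 spanned outer and inner arm dyneins (DNAH5, DNAH6, DNAH7, DNAH11), central pair and other axonemal proteins (HYDIN, SPAG17, CFAP43, CFAP46, CFAP47, CFAP52, CFAP54), TEKT1, ARMC3 and PIFO. CFAP47 was the highest by ratio, at 184.5, 135.2, 503.9 and 1027 CPM, the controls first. In the Unknown nuclei the list summed to 2514 and 2031 CPM in the controls and 4633 and 9009 CPM with PP121. The contrast was smaller against single classes, with 845.5 to 1005 CPM in Progenitor 2 and 1061 to 1545 CPM in epithelial nuclei. The motile cilia list, too, was chosen with earlier results of these data known and is no independent evidence. Among the factors upstream, RFX3 was at 949.7 to 1588 CPM against 411.9 to 470.9 CPM and RFX2 at 155.0 to 244.4 CPM against 70.5 to 108.2 CPM. Both were higher in every sample, and neither passed 4-fold. The 10 primary cilium genes went both ways. In every sample 3 were higher (13.6% of all counted genes) and 4 lower (27.7%). Their median log2 ratio was -0.01 against -0.18 over all genes.

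RFX factors bind the X-box, and its core GTTGCC was searched on both strands of the RefSeq promoters (GRCh38.p14, 250 bases before to 50 after each start). Of the 14 cilia genes, 11 had a promoter in that table and 4 of them held the letters, or 36.4%, against 12.2% of 35116 promoters. For the whole motile cilia list it was 15 of 36 promoters, or 41.7%, and for its genes that did not pass 4-fold it was 11 of 25, or 44.0%. The share was thus no higher among the genes that passed. The stretches before the start site of these 4 genes are shown to place the core, in capitals, with GGCAAC marking it on the opposite strand. They are chr2:84516375-84516474 (plus strand), chr10:132942571-132942634 (minus), chr17:6831730-6831823 (minus) and chrX:35919674-35919733 (plus) in the order given, and the core begins 76, 17, 47 and 13 bases before the start.
DNAH6: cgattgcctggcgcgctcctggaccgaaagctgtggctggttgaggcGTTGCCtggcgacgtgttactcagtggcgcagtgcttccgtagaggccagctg
CFAP46: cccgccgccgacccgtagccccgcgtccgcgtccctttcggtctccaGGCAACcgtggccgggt
TEKT1: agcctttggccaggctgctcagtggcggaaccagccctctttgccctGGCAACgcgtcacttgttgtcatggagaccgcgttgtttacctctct
CFAP47: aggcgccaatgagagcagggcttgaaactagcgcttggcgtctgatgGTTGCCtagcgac
A match describes the letters of the reference and does not show that a factor was bound.

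Clustering the 568 Unknown nuclei alone gave 7 groups, which are numbered and carry no test, since they were made from the same counts. Groups 1 and 2, of 138 and 136 nuclei, held GDF7 at 210.2 and 229.5 CPM, RSPO1 at 107.1 and 77.4 CPM and LMX1A at 678.0 and 553.9 CPM. DPP10 and its antisense partners led group 1, and KCND2 and OPCML, a potassium channel and a neural adhesion molecule, were among the leading genes of group 2. The motile cilia list summed to 3743 and 4181 CPM in these groups. In the controls alone it summed to 3062 to 4259 CPM in them.

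Group 3 held 118 nuclei with LMX1A at 205.2 CPM. Its 10 leading genes, such as CYP2C18, were carried by few nuclei, 37 of the 53 CYP2C18 UMIs by a single one. Among genes chosen after their values were seen, NEAT1 was at 6321 CPM and the hypoxia-responsive NDRG1 at 120.9 CPM, each above every other group. Group 4, of 76 nuclei, went against the rest of the class. LMX1A was at 19.7 CPM and the roof plate list at a summed 76.9 CPM, while MECOM, LGR5, EPHA5 and TAFA4 were among its leading genes, with MECOM at 981.2 CPM and in 84.2% of nuclei. Only 14 of these nuclei lay in the joint cluster that held most of the class, and 86.5% of their nearest outside neighbours were Progenitor 2. OTX2 was at 144.8 CPM in group 4 and 144.4 CPM in group 7.

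Group 5, of 45 nuclei, was led by mitotic genes, among them AURKB, BUB1B and RRM2, and 33 of the 45 nuclei carried the deposited G2/M label. LMX1A was at 374.5 CPM in group 5. Group 6, of 28 nuclei, was led by neuronal genes, with NRXN3 at 2293 CPM, SLC6A5 at 164.8 CPM and SRRM4 at 253.2 CPM. Its median depth was 15263.5 UMIs, and 21 of its 28 nuclei, or 75.0%, were doublet candidates, against 13.0% of all Unknown nuclei.

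**Figure D3:**
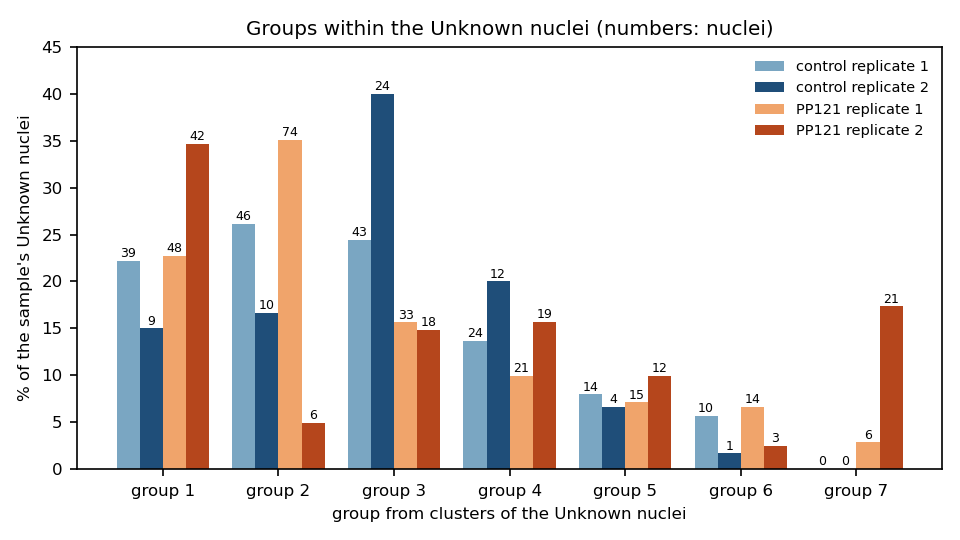
Share of each sample's Unknown nuclei (y axis, %) in each of 7 groups (x axis), with the number of nuclei above each bar. Group 7 has 0 nuclei in both control samples, 6 in PP121 replicate 1 and 21 in PP121 replicate 2.

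Group 7, of 27 nuclei, had AC093515.1, LMNTD1, the basal-body locus gene CDC20B and the axonemal gene CFAP299 among its leading genes, and every one of its nuclei held HYDIN, CFAP299 and LMX1A UMIs. HYDIN was at 1565 CPM, DNAH9 at 1157 CPM, SPAG17 at 1397 CPM and FOXJ1 at 18.6 CPM. The motile cilia list took a median of 2.56% of a nucleus's UMIs, from 0.719% to 4.60%. The multiciliation regulators GMNC, CCNO and FOXN4 were at 165.3, 55.9 and 46.6 CPM and at no more than 19.1, 4.78 and 2.39 CPM in any other group. They are part of a list of 10 regulators that summed to 3894 CPM in group 7 and at most 2015 CPM in any other group. Counts were low: over all Unknown nuclei with PP121, CCNO had 26 UMIs, FOXN4 23 and MCIDAS only 2, and all had 0 in the controls. CDC20B was carried unevenly, 637 UMIs in 8 nuclei with 349 in 1 of them. TTR was at 1500 CPM and the serotonin receptor HTR2C, abundant in choroid plexus, at 1220 CPM, but KL, another choroid plexus gene, had no UMI. PP121 replicate 2 set both values. Its group 7 nuclei held 626 TTR and 524 HTR2C UMIs, and those of PP121 replicate 1 held 18 and 0. Of the immune list, PTPRC was at 165.3 CPM, CSF1R was at 11.6 CPM (5 UMIs) and AIF1, SPI1, CD68, C1QA and CD74 had no UMI in group 7. Of the nearest outside neighbours of group 7, 73.3% were Progenitor 2 and 16.5% epithelial. Median depth of the group was 14933 UMIs, and 0 of its nuclei were doublet candidates.

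**Figure D4:**
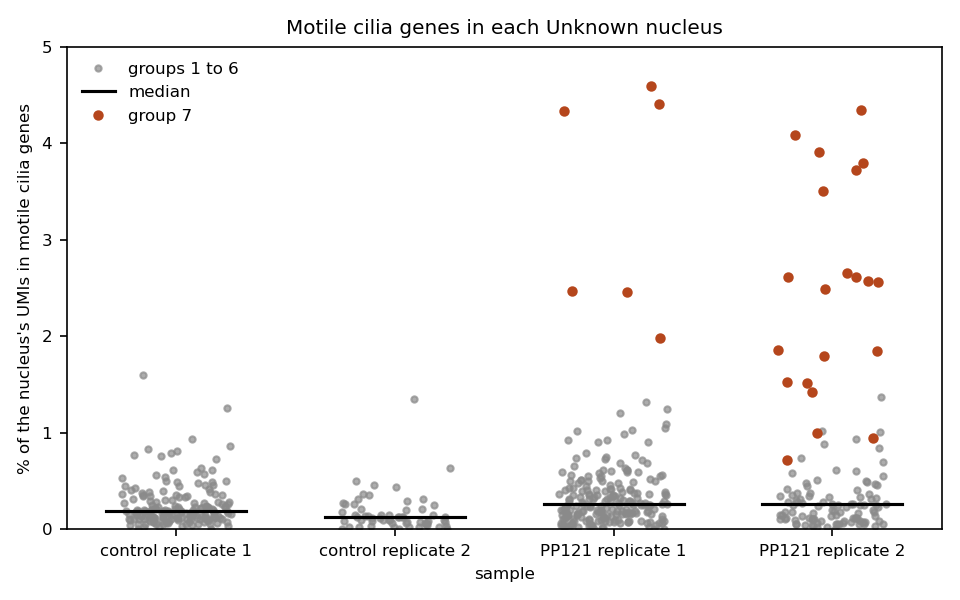
Share of each Unknown nucleus's UMIs in the 40 motile cilia genes (y axis, %), by sample, with group 7 in colour and the sample median as a bar. Control nuclei reach 1.60% at most, and nuclei above 2% occur in both PP121 samples.

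Single nuclei showed the same range without the clusters. The highest motile cilia share of any annotated control nucleus was 1.60%, while 5 and 12 nuclei of PP121 replicates 1 and 2 exceeded 2%, all of them Unknown. With 0 of 176 and 0 of 60 control nuclei in group 7, a share of up to 1.70% and 5.00% of the Unknown nuclei remains possible at this depth by counting error alone. The PP121 shares were 2.84% and 17.4%. Such a cut by a readout gives no test between treatments.

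The share of Unknown nuclei among all annotated nuclei was 4.11% in control replicate 1 (exact 95% interval 3.53 to 4.75%), 1.98% in control replicate 2 (1.51 to 2.54%), 4.60% in PP121 replicate 1 (4.01 to 5.25%) and 4.16% in PP121 replicate 2 (3.46 to 4.94%). Both PP121 values lay above both controls, by 1.33 percentage points on average (3.04 ± 1.51% against 4.38 ± 0.31%, SD, n = 2 each). The exact two-sided permutation test gave p = 0.333, the smallest that 2 against 2 samples allow. Control replicate 2 set most of the difference, which was 0.268 points without it and 2.40 points without control replicate 1. With enteric neurons left out of the denominator, control replicate 1 was above both PP121 samples. Without group 7 (3.46% against 4.11%) and with the joint cluster in place of the class (2.82% against 3.32%), PP121 replicate 2 was below control replicate 1. The intervals cover counting error only.

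The comparison of PP121 with control within the Unknown nuclei asked which genes differ between the treatments in this class. edgeR's quasi-likelihood test on the summed counts, with Benjamini-Hochberg adjustment, called 1 of 13574 genes, or 0.00737%, and 1108 genes had an unadjusted p under 0.05. That gene was CDC20B, with 3 and 0 UMIs in the controls and 524 and 196 UMIs with PP121 (log2 fold change 7.35 ± 0.60 SE, adjusted p = 0.0311). The ratio of counts per UMI was 174 with a counting interval of 59.5 to 848. This call rested on few nuclei, since 521 of the 524 UMIs and 179 of the 196 came from 3 nuclei in each sample. Without group 7, CDC20B was at 1.75 and 0 CPM in the controls and 45.3 and 4.19 CPM with PP121.

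With the replicate number, and so the day, as a block, the same test called 326 genes, or 2.4%. Its p-values measure how the PP121 difference varied between the replicate numbers, not the spread within a treatment. There were 281 higher with PP121 (2.07%) and 45 lower (0.332%). Of the 281 higher genes, 28 were on the motile cilia list. Of its 36 tested genes, 0 were called without the block and 28 rose with it, while 34 had both PP121 samples above both controls, as had 17.5% of all tested genes. None of the 36 had both PP121 samples below both controls, against 22.2% of all tested genes. HYDIN had a log2 fold change of 1.36 ± 0.25 (adjusted p = 1.6e-04 with the block and 0.313 without), DNAH9 of 1.69 ± 0.29 (4.2e-05 and 0.313) and SPAG17 of 1.87 ± 0.26 (8.1e-07 and 0.313). Without control replicate 1 and without control replicate 2, in fits without the block, the log2 fold changes were 1.63 and 1.27 for HYDIN, 2.24 and 1.54 for DNAH9, and 1.87 and 2.20 for SPAG17, and none passed. DNAH10 did not pass, with 18.04 and 19.82 CPM in the controls and 17.5 and 24.6 CPM with PP121.

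These differences shrank when the 27 nuclei of group 7 were left out. The summed level of the motile cilia list was 2514 and 2031 CPM in the controls and 4633 and 9009 CPM with PP121, and without group 7 it was 3271 and 3080 CPM with PP121. The median log2 ratio of the 40 genes, PP121 over control, went from 1.48 to 0.46, and the genes with both PP121 samples above both controls went from 35 to 20. HYDIN was then at 264.4 and 246.4 CPM with PP121 against 193.8 and 155.0 CPM in the controls, and DNAH9 at 85.5 and 58.7 CPM against 83.2 and 52.3 CPM. No test was made of these values, since the group was chosen from the same counts.

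**Figure D5:**
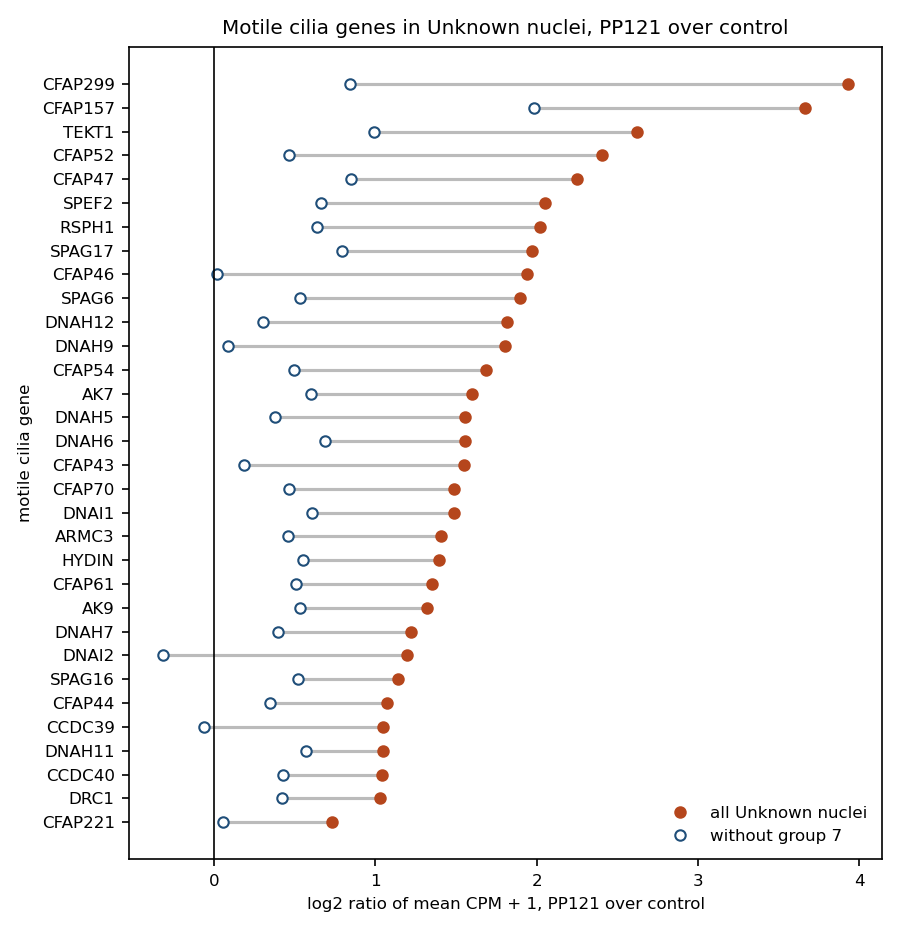
Log2 ratio of mean CPM + 1, PP121 over control (x axis), for the 32 motile cilia genes with a mean of at least 20 CPM (y axis), in all Unknown nuclei (filled) and without group 7 (open). The open points sit nearer to 0, with a median over the whole list of 0.46 against 1.48.

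Among the other genes named by size of change with the block, the rises were again genes with few or no control UMIs. GZMA, a granzyme gene that lies 2742 bases from CDC20B on chromosome 5, on the opposite strand, had 0 UMIs in both controls and 35 and 36 with PP121, at least 17.2-fold higher against a floor of 3 counts over the control group. As the strand setting of the counting is not known, whether reads of the CDC20B locus enter this count was not tested. AC093515.1, the leading gene of group 7, had 0 and 1 against 40 and 298 UMIs, and the ciliary rootlet paralogue CROCC2 had 0 and 1 against 27 and 55. The AC007100.1 transcript had 0 and 2 against 57 and 83 UMIs. The falls were smaller. ABCB4, a phospholipid transporter, fell by 2.43 on the log2 scale (SE 0.51, adjusted p = 0.0012), with 26.2 and 28.8 CPM in the controls and 4.93 and 4.61 CPM with PP121. Its log2 fold change was -2.51 without control replicate 1 and -2.41 without control replicate 2, neither past the threshold. TRH, the thyrotropin-releasing hormone gene, fell by 2.21 (adjusted p = 0.0025), and AC090138.1, ROBO3 and CNNM1 fell by 2.43, 2.22 and 1.90 (adjusted p = 0.0071, 0.0057 and 0.018). ROBO3 and CNNM1 were also leading genes of groups 6 and 3, and those groups took 5.68% and 24.4% of the Unknown nuclei in control replicate 1, 1.67% and 40.0% in control replicate 2, 6.64% and 15.6% in PP121 replicate 1 and 2.48% and 14.9% in PP121 replicate 2. The part of group size in these falls was not tested.

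Of the 9 roof plate genes tested, 0 were called without the block and 3 rose with it, against 2.07% of all tested genes. The median log2 ratio of PP121 over control for the list was 0.54, and 0.59 without group 7. LMX1A rose by a log2 fold change of 0.78 ± 0.23 (adjusted p = 0.045 with the block, 0.354 without), LMX1B by 1.96 ± 0.37 (3.0e-04 and 0.313) and WNT3A by 1.44 ± 0.39 (0.026 and 0.499). Without group 7, LMX1A was at 465.1 and 534.7 CPM with PP121, against 302.7 and 309.9 CPM in the controls. With each control left out in turn its log2 fold change was 0.78 in both fits, short of the threshold. GDF7, RSPO3 and OTX2 did not pass in either fit. GDF7 had a log2 fold change of 0.48 ± 0.22 without the block. Of the 11 kinase genes on the PP121 target list, 7 were tested and 0 passed in either fit.

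TTR and OTX2 were the 2 of 6 counted choroid plexus genes that passed 4-fold over the other classes in every sample. For TTR the log2 ratios were 3.43, 3.39, 2.70 and 5.19, the controls first, and 3.43, 3.39, 2.02 and 2.23 without group 7. TTR was at 33.8, 21.6 and 23.6 CPM in both controls and PP121 replicate 1 and at 530.3 CPM in PP121 replicate 2, where 439 of its 690 UMIs came from 3 nuclei. TTR passed with the block (adjusted p = 0.0065) and not without it (0.517), and PP121 replicate 1 lay below control replicate 1. Without group 7 it was at 14.3 and 67.1 CPM with PP121. HTR2C had 9, 2 and 10 UMIs in the first 3 samples and 591 in PP121 replicate 2, 515 of them from 3 nuclei.

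Whether the PP121 difference in Unknown nuclei departed from that in Progenitor 1 and 2 together was tested as an interaction. Of 19665 genes, 1 passed (0.00509%), again CDC20B, with a difference of 7.28 on the log2 scale (adjusted p = 0.029). That fit had no term for the sample, although each sample gave both an Unknown and a progenitor sum. With the sample as a block, 1 gene passed as well, CDC20B, with a difference of 7.49 (adjusted p = 4.5e-04). The progenitors alone gave 0 calls without the block (962 genes at an unadjusted p under 0.05) and 349 with it. None of the 40 motile cilia genes passed the interaction test, with HYDIN at 1.01 and DNAH9 at 2.26, so a different response of the cilia genes in the Unknown nuclei was not shown at this sample size.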

How the data were processed

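Gene by nucleus counts of UMIs and an annotation of each nucleus were deposited for 4 samples; these counts are whole numbers and were not normalized by the authors. The deposited annotation also holds, as percent of a nucleus's UMIs, the mitochondrial and ribosomal shares that the authors computed, which enter no comparison here. The submitters' processing notes name Cell Ranger, Seurat 4.0.4 and GRCh38, while the study's methods name kallisto and bustools, and the strand setting is not given in the sources used here. Groups came from the sample labels, the class from the deposited annotation, and the members and gene lists were chosen with earlier results of these data known.

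Counts were summed per sample and class. Unknown was set against all other classes by CPM with a pseudocount of 1 CPM, counting a gene past 4-fold in every sample. Named genes were the 25 with the highest smallest ratio (mean of at least 20 CPM, a UMI in at least 10% of Unknown nuclei of every sample), the 10 with the lowest largest ratio (at least 50 CPM elsewhere), for PP121 the 5 largest rises and 5 largest falls at an adjusted p under 0.05 with groups that do not overlap and a mean of at least 10 CPM, the 10 leading genes of each group (at least 20 UMIs), and the listed markers. Summed Unknown counts of 554931 to 1825779 UMIs make 1 UMI worth 0.55 to 1.80 CPM, and this depth limits low genes.

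PP121 was compared with control by edgeR 4.0.16 (R 4.3.3; TMM, filterByExpr, quasi-likelihood), with DESeq2 1.42.0 as an alternative. edgeR and the ratio rule were tested on simulated data. Replicate numbers pair the samples by the deposited day. In the summed Unknown counts, same-numbered samples deviated together only weakly across genes (correlation 0.115). With 2 samples per group, both replicate numbers give this same value by construction. The make-up of the samples did follow the number. Mesenchymal nuclei were 0.934% and 0.719% of annotated nuclei in control and PP121 replicate 1, and 13.5% and 14.5% in control and PP121 replicate 2. The 2 samples of a group come from 1 cell line and are biological replicates in the paper's terms. Without the block, p-values measure the spread between them. With the block, they measure how the PP121 difference varied between the replicate numbers. The 4 samples leave little to estimate that from, so it is largely borrowed across genes. Groups used scanpy 1.11.5 and leidenalg 0.10.2 (2000 variable genes, 15 components, 15 neighbours, resolution 0.5). Scrublet's own threshold marked 10 of 14812 nuclei and had not worked, so the top 8% of scores per sample were called doublet candidates and kept in the main values. Thinned shares left out 3 of 568 Unknown nuclei. Gene positions are from GENCODE release 29 and promoters from RefSeq. Alternatives covered fold, pseudocount, filter, depth, doublets, class definition, block and samples. Leaving out group 6 or group 7, the block combined with another choice, and the sample as a block were chosen after seeing the data.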

Additional observations from a re-analysis of the deposited data

Results flagged for a closer look

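The PP121 difference of CDC20B was larger in the Unknown nuclei than in the progenitors, by 7.28 on the log2 scale (edgeR interaction test, adjusted p = 0.029), and 521 of 524 and 179 of 196 of its UMIs in PP121 replicates 1 and 2 came from 3 nuclei each. Outside the annotated classes, among nuclei filtered for low quality that held at least 2000 UMIs, 1 nucleus of PP121 replicate 1 and 2 nuclei of PP121 replicate 2 had more than 1% of their UMIs in the motile cilia list, against 0 in both control samples.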

How the results depend on the processing

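The 150 genes at least 4-fold higher in the Unknown nuclei became 520 at 2-fold, 53 at 8-fold, 84 with a pseudocount of 5 CPM and 56 against each class of at least 30 nuclei. The 68 lower genes became 444 at 2-fold, 6 at 8-fold, 272 and 35 with pseudocounts of 0.1 and 5 CPM, 0 against each class, 122 after thinning, 105 without doublet candidates and 108 without group 6. Leaving out 1 library gave 151 to 209 higher and 80 to 111 lower genes, with 111 without PP121 replicate 2. Of 649 recomputed ratios of 59 genes, 578 moved by less than the spread between samples, 71 by more, and 0 changed direction. The share of Unknown nuclei with a UMI of LMX1A was 26.6%, 51.5% and 62.9% with thinning to 1000, to 4000 and without it, that of HYDIN 21.3%, 47.3% and 60.7%, and that of FOXJ1 3.70% without thinning.

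For PP121, the 1 gene called became 326 with the replicate block, 499 without a filter on low counts, 0 with at least 10 counts in every sample (755 at an unadjusted p under 0.05), 2 without doublet candidates, 0 with the same number of nuclei per sample (558 unadjusted) and 74 by DESeq2's Wald test. The replicate block combined with another choice gave 366 genes with DESeq2 size factors, 32 without doublet candidates, 281 for the joint cluster, 81 with the same number of nuclei and 17 with at least 10 counts. Leaving out 1 library gave 0 to 668 genes, 0 without either control, 668 without PP121 replicate 1 and 4 without PP121 replicate 2, where the lone sample is assumed to vary like the other group. The interaction gave 0 to 36 genes, 36 without PP121 replicate 1 and 0 without either control, and 1 with the replicate block. The cause of these changes was not tested. CDC20B kept its direction where its call was lost: without control replicate 2 its log2 fold change was 6.94 (adjusted p = 0.117) and its interaction 7.25 (adjusted p = 0.098). Without control replicate 1 the remaining control holds 0 of its UMIs, so the fitted fold is no bound.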
